A study of Mus musculus with 2 samples.

Results

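Aminoacyl-tRNA synthetases are the enzymes that join each amino acid to its matching transfer RNA, the step that makes the genetic code readable by the ribosome. The 35 genes described here were taken by symbol from a list, 19 whose products are known to work in the cytosol and 16, all with symbols ending in 2, whose products are known to work in mitochondria. They are 35 of 55450 annotated mouse genes in the deposited tables and hold 286 annotated transcripts. The samples were the left cerebral cortices of 2 female B6CASTF1/J mice, the F1 hybrid of the C57BL/6J and CAST/EiJ strains, taken at 10 days of age. Both animals form 1 group, and the labels give no treatment and no other genotype. Total RNA was sequenced from 300 ng per library with reduction of ribosomal RNA and with ERCC spike-ins, which are synthetic RNAs added in known amounts. With 1 group of 2 animals there is no comparison between conditions and no p-value. The labels number the samples as separate biological replicates with separate tissue records, but both cite the same donor record; they were taken as 2 animals on the first ground. Values are therefore given for both libraries, and SDs describe these animals only; no source used here says whether they were littermates.

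In general an amino acid is charged by an enzyme specific for it. Most cells keep separate enzymes for the cytosol and for the mitochondrion, both encoded in the nucleus. Mitochondrial glutaminyl-tRNA is an exception, finished by an amidotransferase. Several of the cytosolic enzymes are held together with scaffold proteins in the multi-synthetase complex. A few genes break the rule of 1 gene for 1 compartment and 1 amino acid: Kars and Gars are known to supply lysyl- and glycyl-tRNA synthetase to both compartments, Eprs encodes glutamyl and prolyl activities in 1 chain, and Farsa and Farsb encode the 2 subunits of the cytosolic phenylalanyl enzyme. In people, inherited variants of many synthetases are known causes of disease of the peripheral nerve (cytosolic genes such as GARS and YARS) or of brain white matter, hearing and ovary (mitochondrial genes such as AARS2 and LARS2).

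The gene tables held 29843278 reads assigned to genes in replicate 1 and 31006959 in replicate 2, and the tissue label was matched by its markers. All 7 genes fixed as markers of cortical excitatory neurons were at 1 TPM or more in both libraries, led by Slc17a7, the vesicular glutamate transporter of these neurons, at 521.6 and 501.3 TPM. The 3 cerebellar genes were all under 1 TPM, with Gabra6 at 0 and 0.12 TPM. Of the 4 genes fixed as markers of the oligodendrocyte lineage, the 2 myelin genes were higher in replicate 2: Mbp, myelin basic protein, was at 90.02 and 180.8 TPM and Mog, a myelin surface glycoprotein, at 1.83 and 4.53 TPM. The other 2, Pdgfra and Olig1, were at 36.3 and 29.75 TPM and at 47.5 and 48.6 TPM. Of the 3 genes fixed as choroid plexus markers, Ttr was at 3.98 and 9.70 TPM. The others were near or under 1 TPM, Kl at 0.77 and 1.07 TPM and Folr1 at 0.43 and 0.38 TPM. TPM is the level of a gene or transcript corrected for transcript length and scaled to a fixed total per library (1000000), so that genes can be set beside each other. In such bulk tissue, fewer cells of a type and less RNA per cell cannot be told apart.

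All 35 synthetase genes were detected, meaning 1 TPM or more in both libraries, where 59.2% of all 21951 protein-coding genes were. The cytosolic genes formed the higher group. Their median level was 40.9 TPM in replicate 1 and 42.4 TPM in replicate 2 (41.7 ± 1.08, SD, n = 2), against 11.3 and 10.4 TPM for the mitochondrial genes (10.9 ± 0.580, SD, n = 2). The median of the 13004 detected protein-coding genes lay between them, at 17.2 and 15.95 TPM. The cytosolic median was thus 3.63 and 4.06 times the mitochondrial median within the libraries, and 3.91 and 4.12 times without Lars2, the mitochondrial leucyl-tRNA synthetase, whose level differed between the animals. Summed over genes, the cytosolic group held 902.4 and 875.1 TPM, and the mitochondrial group without Lars2 174.1 and 159.9 TPM.

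**Figure D1:**
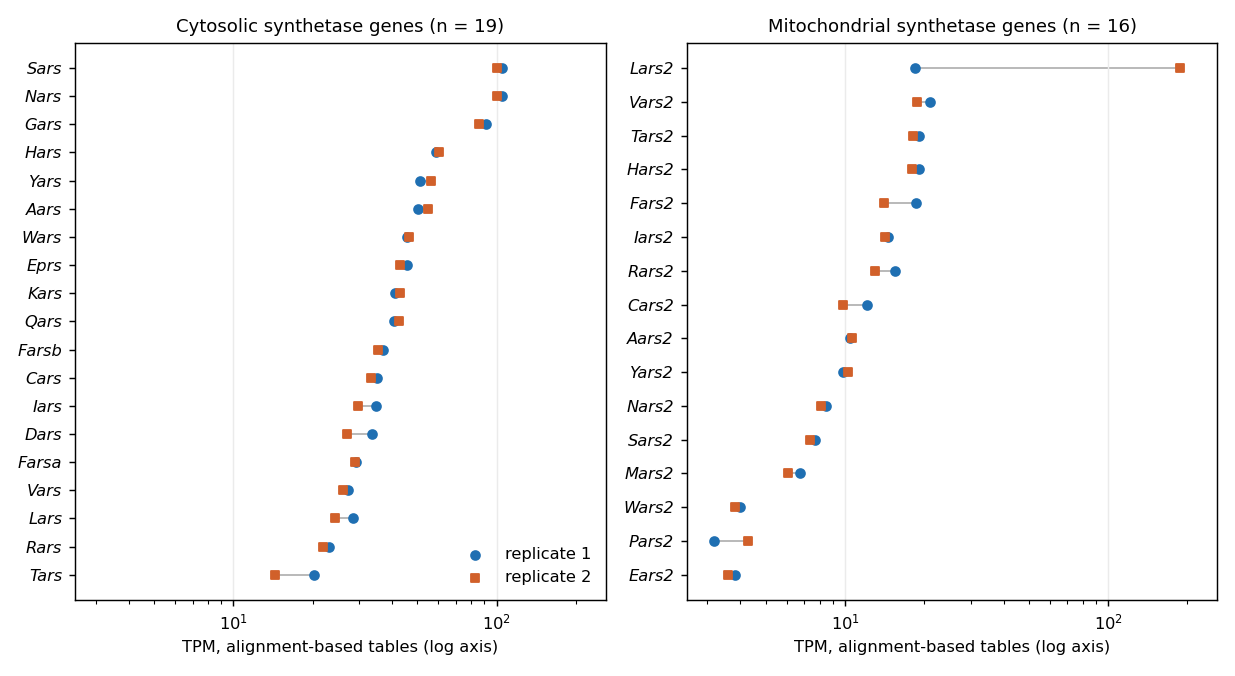
Level of each synthetase gene in each library (TPM, log axis), cytosolic genes on the left and mitochondrial genes on the right, ordered by mean; circles are replicate 1, squares replicate 2. The cytosolic means run from 17.3 to 102.6 TPM, and Lars2 is the only gene whose libraries lie far apart, at 18.5 and 186.6 TPM.

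The separation of the groups in the plot of levels was nearly complete. In each library, 18 of the 19 cytosolic genes were above every mitochondrial gene except Lars2. The exception was Tars, the threonyl-tRNA synthetase, at 20.2 and 14.4 TPM, which was below Vars2 in replicate 1 and below Vars2, Tars2 and Hars2 in replicate 2. In the ranking of detected protein-coding genes by mean TPM, the cytosolic genes fell between percentiles 51.4 (Tars) and 92.5 (Sars). The mitochondrial genes without Lars2 fell between percentiles 14.5 (Ears2) and 55.7 (Vars2).

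Of the cytosolic genes in the alignment-based tables, Sars, the seryl-tRNA synthetase (chr3:108424865-108445209, minus strand), had the highest mean. It was at 104.5 TPM (3117 reads) in replicate 1 and 100.7 TPM (3325 reads) in replicate 2, a mean of 102.6 ± 2.69 (SD, n = 2). Nars, the asparaginyl-tRNA synthetase, was at 104.5 and 100.3 TPM, and in these tables did not differ from Sars beyond the spread between libraries. Gars, the glycyl-tRNA synthetase (chr6:55038007-55079500, plus strand), followed at 91.3 and 85.8 TPM. These 3 genes stood apart: the next was Hars, the histidyl enzyme, at 59.0 and 60.7 TPM. Yars, the tyrosyl enzyme, was at 51.0 and 56.4 TPM and in the alignment-based tables overlapped Aars, the alanyl enzyme, at 50.4 and 55.0 TPM. Wars, the tryptophanyl enzyme, was at 45.6 and 46.6 TPM. The alignment-free tables gave another order. Nars was at 160.5 and 161.6 TPM there, above Sars at 144.5 and 149.6 TPM. Yars, at 100.6 and 103.0 TPM, was above Hars at 86.7 and 93.9 TPM and Aars at 63.5 and 67.5 TPM. Over protein-coding transcripts alone, alignment-based means were 101.35 TPM for Sars, 86.51 for Gars and 76.15 for Nars.

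At the low end of the cytosolic group, Lars, the cytosolic leucyl enzyme, was at 28.5 and 24.4 TPM, Rars, the arginyl enzyme, at 23.0 and 21.8 TPM, and Tars at 20.2 and 14.4 TPM. The gap between the libraries for Tars was not in its reads, which were 828 and 887. Tars-202, a short transcript annotated as a retained intron, was given 4.99 TPM in replicate 1 and 0.13 TPM in replicate 2. The protein-coding Tars-201 was at 9.18 and 10.03 TPM. The alignment-free tables also had Tars lower in replicate 2, at 39.5 and 30.8 TPM on 852.3 and 916.1 reads, with Tars-202 at 10.9 and 3.95 TPM. Farsa and Farsb, whose products assemble into 1 enzyme with equal numbers of both chains, were at 29.4 and 28.9 TPM and at 36.9 and 35.6 TPM. Their ratio was 0.795 and 0.813 (0.804 ± 0.0126, SD, n = 2), and 0.514 and 0.586 in the alignment-free tables.

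The 7 listed members of the multi-synthetase complex spanned a narrower range than the cytosolic genes outside it, 22.4 to 44.3 TPM as means against 17.3 to 102.6. Eprs, the glutamyl-prolyl enzyme, was highest by the mean at 45.7 and 42.9 TPM. Kars was at 41.2 and 43.2 TPM, and Qars, the glutaminyl enzyme, at 40.9 and 42.4 TPM. Iars, the isoleucyl enzyme, was at 34.7 and 29.7 TPM and Dars, the aspartyl enzyme, at 33.5 and 27.1 TPM, with Lars and Rars as above. The median of the 7 was 34.7 and 29.7 TPM (32.2 ± 3.53, SD, n = 2), against 48.0 and 50.8 TPM for the 12 cytosolic genes outside the complex (49.4 ± 1.98, SD, n = 2). In the alignment-based tables the 3 scaffold genes of the complex were close together and below most of its enzymes. Aimp1 was at 22.5 and 23.3 TPM, Aimp2 at 24.8 and 24.5 TPM, and Eef1e1, which encodes AIMP3, at 22.8 and 20.6 TPM. The alignment-free tables set them apart, with Aimp1 at 62.4 and 63.4 TPM, Aimp2 at 35.3 and 38.3 TPM and Eef1e1 at 15.6 and 13.6 TPM. The median of the 7 enzymes there was 49.3 and 45.5 TPM, so that Aimp1 was above it.

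Within the mitochondrial group without Lars2, Vars2, Tars2 and Hars2, the valyl, threonyl and histidyl enzymes, formed a tight upper set in the alignment-based tables. Vars2 was at 21.03 and 18.8 TPM, Tars2 at 19.1 and 18.1 TPM, and Hars2 at 19.1 and 17.9 TPM, so that their order was not fixed by these libraries. Fars2, the phenylalanyl enzyme that works as a single chain, was at 18.5 and 14.0 TPM. At the low end were Wars2, the tryptophanyl enzyme, at 3.98 and 3.81 TPM, Pars2, the prolyl enzyme, at 3.17 and 4.26 TPM, and Ears2, the glutamyl enzyme, at 3.83 and 3.59 TPM. The last 2 rest on the fewest reads of all members, 148 and 148 for Pars2 and 193 and 193 for Ears2. The other 8 mitochondrial genes had means from 6.41 TPM (Mars2) to 14.4 TPM (Iars2). Among them Rars2, the arginyl enzyme known for its link to pontocerebellar hypoplasia, was at 15.5 and 12.95 TPM, and Iars2, the isoleucyl enzyme, at 14.6 and 14.2 TPM. Aars2, the alanyl enzyme known for its link to white matter and ovarian disease, was at 10.45 and 10.6 TPM, level with Yars2, the tyrosyl enzyme, at 9.86 and 10.3 TPM. Cars2, the cysteinyl enzyme, was at 12.1 and 9.86 TPM. Mars2, the methionyl enzyme, holds 1 annotated transcript, and 1410 and 1394 reads gave it 6.73 and 6.08 TPM. The upper set did not hold in other counts. In the alignment-free tables Rars2 had a mean of 29.7 TPM, against 27.9 for Vars2, 27.7 for Tars2 and 25.6 for Hars2. Over protein-coding transcripts alone, alignment-based means were 3.68 TPM for Vars2 and 6.57 for Hars2. Tars2 at 13.3 and Iars2 at 13.5 were higher.

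The libraries differed in Lars2, both in its total and in the transcripts to which its reads were assigned. Lars2 (chr9:123366927-123462666, mm10, plus strand) has 9 annotated transcripts and held 1224 reads in replicate 1 and 13948 in replicate 2. This was an 11.4-fold difference in reads, and 18.5 against 186.6 TPM. It was the only member past 1.5-fold between the libraries, 1 of 35, with a log2 ratio of 3.49 in scaled reads; of all 12683 genes with a mean of 100 reads or more, 1.77% were past 1.5-fold (0.505% higher in replicate 2 and 1.26% lower), and Lars2 ranked 5 by its rise among them. The other 34 synthetase genes differed by at most 1.14-fold, with a median of 1.06-fold, the same as the median of all genes at 1.06-fold. The myelin genes Mbp and Mog and the choroid plexus gene Ttr were also higher in replicate 2, as given above; their part in the Lars2 difference was not tested. Of the 35, 22 had a log2 ratio above 0 and 13 below 0. The median coefficient of variation of TPM was 3.89% for the members and 6.42% for detected protein-coding genes. These values are not matched for depth. The fewest reads of a gene were 148 and 148 among the members and 1.91 and 3.87 among the detected protein-coding genes.

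**Figure D2:**
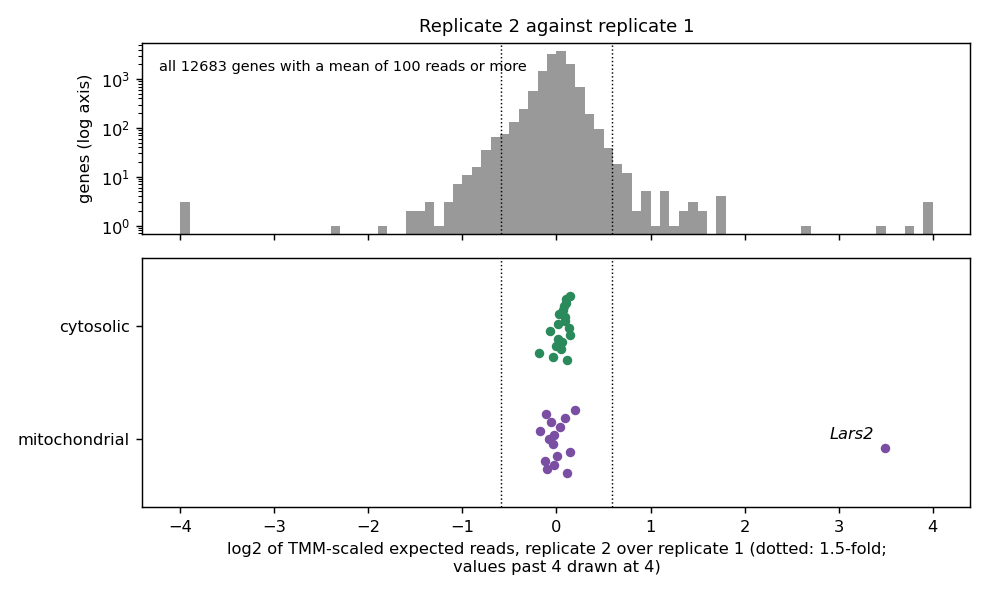
Log2 ratio of TMM-scaled reads, replicate 2 over replicate 1, for all 12683 genes with a mean of 100 reads or more (histogram, log axis, values past 4 drawn at 4) and for each synthetase gene (points below); dotted lines mark 1.5-fold. The points of 34 members lie between the dotted lines, and Lars2 lies at 3.49.

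Both methods assigned the excess to transcripts that do not encode the full enzyme. Lars2-201, the protein-coding transcript of 3894 bases and 902 codons, held 755.3 reads in replicate 1 and 593.7 in replicate 2 (10.6 and 7.64 TPM) in the alignment-based tables. Lars2-209, of 3756 bases and annotated for nonsense-mediated decay with an open reading frame of 495 codons, held 421.9 and 13308 reads (6.16 and 177.7 TPM). The leading transcript of Lars2 was thus Lars2-201 in replicate 1, with 57.5% of the gene's TPM, and Lars2-209 in replicate 2, with 95.3%. The 2 transcripts have the same number of exons and part at a single junction. It is shown because it is the annotated difference between the enzyme transcript and the one assigned most Lars2 reads in replicate 2. Reads across it were not counted here, so the split between the 2 transcripts rests on the estimates of each method. Each line gives 15 bases on either side of the junction on the plus strand of chr9 (mm10, read from the GENCODE M21 transcripts), with the bases of the second exon in capitals. The exons meet at bases 123432001 and 123436117 in Lars2-201 and at bases 123432005 and 123436234 in Lars2-209.
Lars2-201: agtggatctgctgagTTTACAGGTATGACC
Lars2-209: gatctgctgaggttgCGCTACTGGGGCACA

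The alignment-free tables, made from the same reads, divided them differently. There Lars2-205, a retained-intron transcript of 889 bases, held 439.0 and 15949 reads (51.9 and 1823 TPM) and Lars2-209 held 1472 and 32157 reads (27.6 and 585.1 TPM), while Lars2-201 held 880.5 and 685.6 reads (15.9 and 11.99 TPM). In the alignment-based tables Lars2-205 was at 0.09 and 0 TPM. With either method the difference between the animals was assigned to Lars2-209, and without alignment also to Lars2-205. Together the pair held 423.3 and 13308 alignment-based reads, 34.6% and 95.4% of the gene's reads, and the other 7 transcripts summed to 800.7 and 639.8 reads, a ratio of 0.799. In the alignment-free tables the pair held 66.3% and 98.4% of the reads, and the other 7 transcripts summed to 970.7 and 768.1 reads, a ratio of 0.791. Counting protein-coding transcripts alone, Lars2 was at 11.4 and 8.06 TPM, in the range of the other mitochondrial synthetases.

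**Figure D3:**
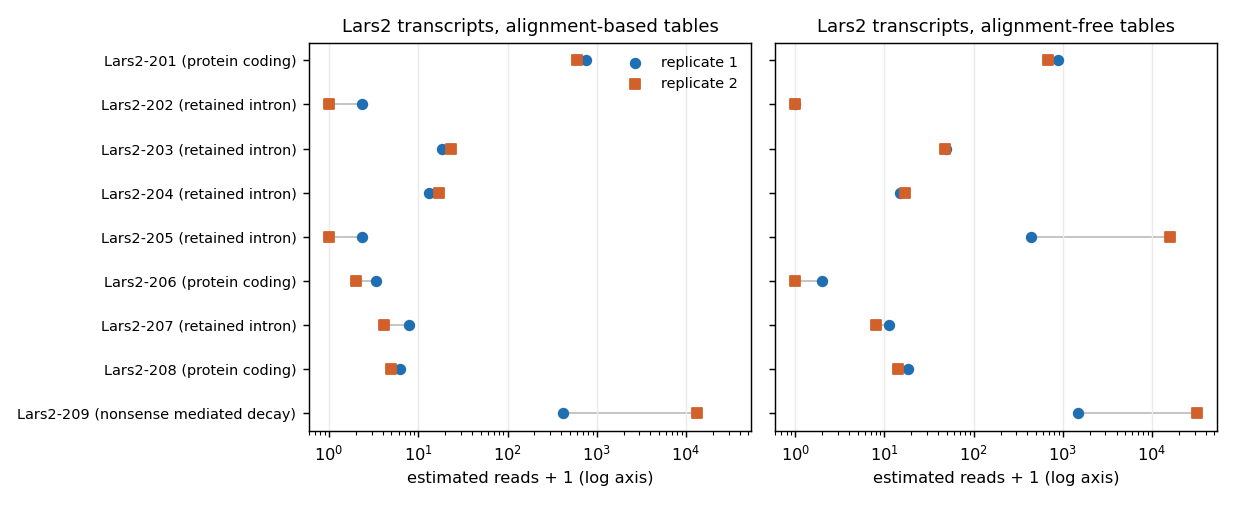
Estimated reads plus 1 (log axis) for the 9 annotated Lars2 transcripts in the alignment-based (left) and alignment-free (right) tables; circles are replicate 1, squares replicate 2. The gap between replicates lies in Lars2-209 on both sides and also in Lars2-205 on the right, while Lars2-201 stays between 593.7 and 880.5 reads.

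The last exon of Lars2-201 and Lars2-209 holds stretches that are also part of transcripts of other genes, which bears on where reads can be placed. In the 3′ untranslated region, 97 bases (chr9:123462003-123462099) matched AA474408-201 at 94.8% identity and 50 bases (chr9:123461933-123461982) matched it at 96.0%. AA474408 is an unclassified transcribed locus on chromosome 7 (chr7:110057987-110061325, minus strand). A further 72 bases (chr9:123462048-123462119) matched Gm15564-202, an antisense transcript on chromosome 16, at 98.6%. The longest letter-for-letter runs were 41 bases (chr9:123461942-123461982) with AA474408-201 and 52 bases (chr9:123462048-123462099) with Gm15564-202, and the first 30 bases of each are shown in lower case throughout, plus strand.
Lars2 run shared with AA474408-201, chr9:123461942-123461971: tgtcagaaaagttaccacagggataactgg
Lars2 run shared with Gm15564-202, chr9:123462048-123462077: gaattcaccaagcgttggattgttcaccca

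Lars2-205 holds neither run. AA474408 itself was at 35 and 20 reads in the alignment-based tables, but at 683.3 and 12056 reads in the alignment-free tables, a 17.6-fold difference beside the 17.0-fold difference of Lars2 there. Gm15564 stayed at 1 and 1 read and at 2.82 and 3.88 reads. Gm42418, a lincRNA row next to Gm26917 in the part of chromosome 17 where mm10 places a 45S pre-ribosomal RNA, was at 91423 and 206433 reads, 2.26-fold higher in replicate 2. Gm26917 was at 779842 and 917352 reads, 1.18-fold higher. The Lars2 transcripts gave no match to either row. No large-subunit ribosomal RNA sequence was used here, so a match of the shared stretches to ribosomal RNA was not tested, and the part of any of these rows in the Lars2 difference was not tested.

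Setting the cytosolic gene beside the mitochondrial gene for the same amino acid, in log2 of TPM with 0.1 added, gave 16 pairs. The cytosolic gene was higher in both libraries in 14 of them, and at least 2-fold higher in both libraries in 10. By the mean over all transcripts, serine had the widest gap: Sars at 104.5 and 100.7 TPM stood against Sars2, the mitochondrial seryl enzyme, at 7.72 and 7.37 TPM, a log2 ratio of 3.74 and 3.75, or 13.4-fold. Over protein-coding transcripts alone asparagine was wider, with Nars 19.0-fold above Nars2 and Sars 14.6-fold above Sars2, and in replicate 1 the Eprs-Pars2 pair was wider at 3.81. For asparagine, Nars was 12.2-fold above Nars2 (8.43 and 8.11 TPM), with log2 ratios of 3.62 and 3.61. Eprs was 11.7-fold above Pars2 (log2 3.81 and 3.30) and 11.6-fold above Ears2 (log2 3.54 in both), and Wars was 11.6-fold above Wars2 (log2 3.49 and 3.58). The means of the 5 widest pairs differed by less than the 0.357 SD of the Eprs-Pars2 pair, the largest SD among them. The SDs of Sars-Sars2, Nars-Nars2, Eprs-Ears2 and Wars-Wars2 ran from 0.00057 to 0.064. Sars-Sars2 was above Nars-Nars2, Eprs-Ears2 and Wars-Wars2 in both libraries.

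A middle set followed. The log2 ratio was 2.40 for Yars over Yars2, 2.31 for Aars over Aars2, 1.69 for Hars over Hars2 and 1.64 for Cars over Cars2. It was 1.16 for Farsb and 0.85 for Farsa over Fars2, 1.15 for Iars over Iars2 and 0.66 for Rars over Rars2. In either direction, the TPM intervals in the authors' deposited tables were apart for the 2 genes in both libraries in 14 of the 16 pairs. The exceptions were Vars-Vars2 and Tars-Tars2. The 14 include Lars-Lars2, where Lars was higher in replicate 1 (log2 0.62) and Lars2 in replicate 2 (log2 -2.93). The level of those intervals is not stated.

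**Figure D4:**
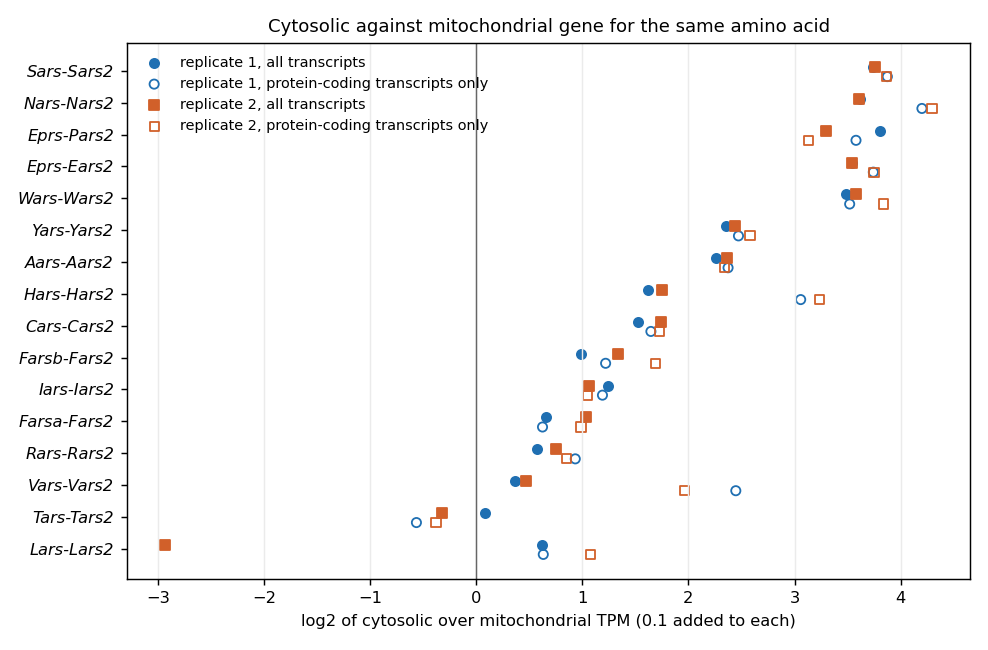
Log2 ratio of cytosolic over mitochondrial TPM (0.1 added to each) for 16 gene pairs, for all transcripts (filled) and for protein-coding transcripts only (open); circles are replicate 1, squares replicate 2. By the mean over all transcripts the pairs run from 3.75 for Sars-Sars2 down to -0.12 for Tars-Tars2 and -1.16 for Lars-Lars2; for that pair the filled square at -2.93 has its open counterpart at 1.08.

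At the narrow end of the plot of pairs lay valine, threonine and leucine. Vars, the cytosolic valyl enzyme, at 27.2 and 26.1 TPM was 1.34-fold above Vars2 (log2 0.37 and 0.47), and their deposited intervals overlapped in replicate 1 and were apart in replicate 2. When only protein-coding transcripts were counted the log2 ratio was 2.20, or 4.61-fold. Tars and Tars2 were level within the spread of the libraries, with log2 ratios of 0.081 and -0.32 over all transcripts, and -0.56 and -0.38 over protein-coding transcripts. In the alignment-free tables the ratios were 0.45 and 0.21, so these data do not fix a direction. For leucine, Lars over Lars2 was 0.62 in replicate 1 and -2.93 in replicate 2. Over protein-coding transcripts it was 0.63 and 1.08, a mean of 1.81-fold with Lars higher. With protein-coding transcripts 15 of the 16 pairs had the cytosolic gene higher in both libraries.

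The share of a gene's TPM in transcripts annotated as protein-coding separated some synthetases from the rest. The median share was 85.6% for cytosolic and 73.2% for mitochondrial genes, and 90.2% for detected protein-coding genes, whose lower quartiles were 71.4% and 73.5% in the libraries. Sars was at 98.6% and 99.0%, Gars at 97.5% and 97.9%, and Mars2 and Pars2 at 100%. Vars2 was lowest in replicate 1 at 14.4%, and 23.1% in replicate 2. Qars was at 28.2% and 30.2%, Hars2 at 36.0% and 35.0%, Nars2 at 48.6% and 45.9%, and Cars, the cysteinyl enzyme, at 60.4% and 56.9%. Tars was at 45.5% and 69.7%. Lars2 was at 61.4% and 4.32%. These shares are from the alignment-based tables, and for some genes the alignment-free tables gave others: 19.1% and 0.586% for Lars2, 28.4% and 42.3% for Tars, 48.2% and 63.0% against 85.6% in both libraries for Rars, and 53.4% and 59.3% against 84.2% and 76.3% for Yars. For Nars2 they were 38.9% and 29.3%, and for Hars2 42.2% and 54.2%. Shares of TPM give short transcripts more weight than shares of reads. In alignment-based reads, protein-coding transcripts held 351.3 of 492 and 362.7 of 501 for Hars2. They held 246.2 of 306 and 236.8 of 294 for Nars2, and 964 of 1147 and 953.5 of 1135 for Cars. Tars-201 held 81.1% and 90.4% of the Tars reads. For Qars they held 452 of 1311 and 529.4 of 1415, still the smaller part.

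**Figure D5:**
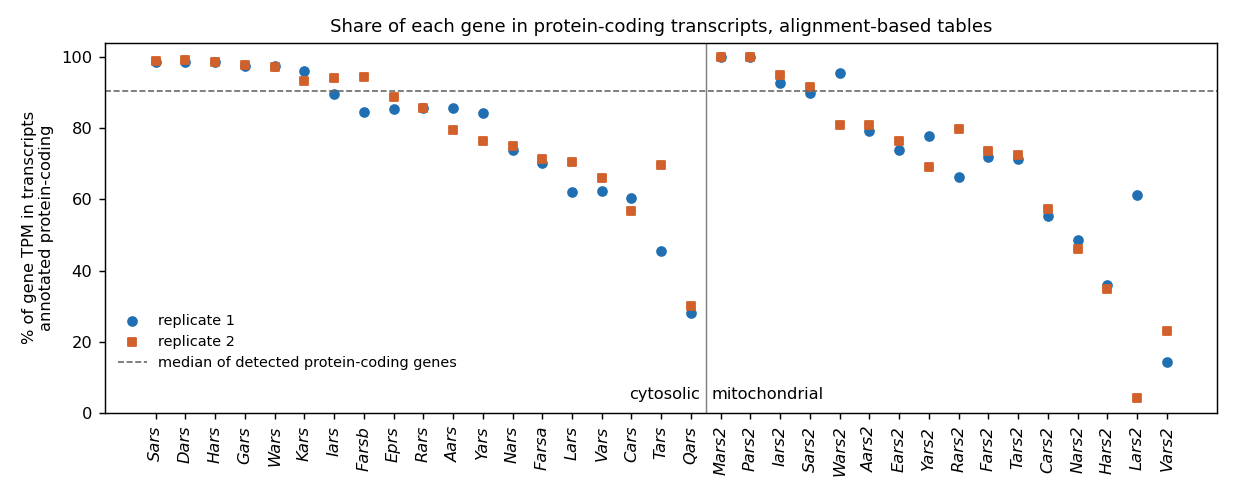
Percent of each gene's TPM held by transcripts annotated as protein-coding, alignment-based tables, cytosolic genes left of the line and mitochondrial genes right of it; circles are replicate 1, squares replicate 2, and the dashed line is the mean over libraries of the median of detected protein-coding genes. Qars, Hars2 and Vars2 lie under 40% in both libraries, and the Lars2 points are far apart at 61.4% and 4.32%.

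In the alignment-based tables the transcript with the most TPM was protein-coding in both libraries for 31 of the 35 genes, where 90.9% of detected protein-coding genes had such a lead. The exceptions were Lars2, Qars, Vars2 and Nars2. In the alignment-free tables the count was 30, against 88.8% of those genes, and Tars was the additional exception. Qars has 34 annotated transcripts, and its leading transcript was Qars-231, annotated for nonsense-mediated decay, at 13.5 and 11.7 TPM, 33.1% and 27.5% of the gene. In the alignment-free tables Qars-231 held 9.41% and 14.3%, and the leads were Qars-208, a retained intron, with 19.7% in replicate 1 and Qars-228, a non-coding transcript, with 15.8% in replicate 2. For this gene the deposited TPM interval, 46.0 to 59.5 in replicate 1, did not include the deposited TPM of 40.9. For Vars2 the lead was Vars2-206, a retained intron at 4.40 TPM, in replicate 1 and the protein-coding Vars2-201 at 4.34 TPM in replicate 2. Without alignment it was Vars2-204, another retained intron, with 26.7%, and Vars2-201 with 28.7%. For Nars2 the lead was the protein-coding Nars2-201 at 3.14 TPM in replicate 1 and the non-coding Nars2-204 at 2.94 TPM in replicate 2, with the other transcript at 2.70 and 2.66 TPM. Without alignment Nars2-204 led in both libraries, with 34.4% and 52.7%. By reads instead of TPM, Nars2-201 led in both libraries, with 70.6% and 68.0% with alignment and 62.5% and 65.6% without.

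Kars is known to serve its 2 compartments through an alternative exon near its start, so the split of its reads between transcripts is a measured quantity of interest. Kars-201 encodes 595 codons, and Kars-202 and Kars-203, which include an additional exon, encode 624 codons; the longer form is known as the mitochondrial enzyme. The junction that tells them apart lies on the minus strand of chr8 (mm10), with the shared second exon in capitals, starting at base 112005788. It is preceded by base 112011210 in Kars-201 and by base 112008207 in Kars-202 and Kars-203.
Kars-201: gaaactaagcaagaaTGAGCTGAAGAGGCG
Kars-202 and Kars-203: ttctgatagaagaagTGAGCTGAAGAGGCG

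In the alignment-based tables Kars-201 held 52.2% and 53.1% of the gene's TPM, Kars-202 29.2% and 33.1%, and Kars-203 14.7% and 7.11%. In the alignment-free tables Kars-201 held 0.03% and 0%, Kars-203 53.2% and 48.6%, Kars-202 23.0% and 33.6%, and Kars-205, a short transcript of 63 codons, 22.2% and 17.0%. The gene's total was similar in both: the alignment-free level, relative to the median protein-coding gene, was 1.15 and 1.03 times the alignment-based level. The balance of the cytosolic and mitochondrial forms of Kars therefore cannot be read from these tables, since the methods gave opposite orders on the same reads. Gars posed no such choice. Its product for both compartments is known to come from alternative start codons of 1 messenger, and Gars-201 (729 codons) held 97.5% and 97.9% of its TPM.

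Across all members the leading transcript by TPM was the same in both libraries and both methods for 24 of 35 genes, and by reads for 27. Of the 34 with more than 1 annotated transcript, the lead by TPM was the same for 23. Of 11756 detected protein-coding genes with more than 1 transcript, 67.1% had the same lead by TPM. The 11 genes where it changed were Cars, Fars2, Farsb, Kars, Lars2, Nars2, Pars2, Qars, Tars, Tars2 and Vars2. Cars-202 led in the alignment-based tables with 42.3% and 36.8%, and the alignment-free lead in replicate 1 was Cars-209, of 53 codons, with 29.8%. Farsb-201 held 79.2% and 86.5% in the alignment-based tables, and Farsb-206 led in the alignment-free tables in replicate 1 with 37.3%. For Fars2 the lead was Fars2-205 (44.6% and 42.1%) with alignment and Fars2-208 (34.1% and 49.2%) without. For Pars2 it was Pars2-201 (53.0% and 42.7%) with alignment and Pars2-202 (79.5% and 51.1%) without. Tars-201 led with 45.5% and 69.7% in the alignment-based tables and with 42.3% in the alignment-free table of replicate 2, and Tars-204, a retained intron, led with 34.4% in that of replicate 1. Tars2-201 led everywhere except the alignment-based table of replicate 2, where Tars2-204 held 32.4%.

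Gene totals were steadier than transcript shares. Each alignment-free gene level was divided by the alignment-based level and by the median of that ratio over protein-coding genes, which was 1.46 and 1.54. Of the 35 members, 2 were more than 1.5-fold higher in the alignment-free tables in both libraries, Lars2 at 3.71 and 8.45 times and Cars at 1.62 and 1.58 times, and 0 were lower; of 12957 protein-coding genes, 4.31% were past it by the same rule, 3.27% higher and 1.03% lower. Farsb at 1.58 and 1.44, Qars at 1.52 and 1.39 and Rars2 at 1.52 and 1.24 passed the threshold in replicate 1 alone. The median of this ratio over the members was 1.01 and 0.996.

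Neighbours on the genome limit some of these counts. The share of all annotated genes that overlap another was not counted, so the numbers here mark a limit and no trait of the set. Of the 35 genes, 18 are overlapped by another annotated gene and 16 by a gene on the other strand, among them Fars2, Iars2, Cars2 and Ears2. The spike-in label describes the libraries as stranded, but no source used here says whether counting used strand, so the values of these genes are uncertain to that extent. Hars and Hars2 are transcribed away from each other, and their annotated spans overlap by 198 bases. Eprs and Iars2 lie 33647 bases apart on chromosome 1.

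Several cytosolic synthetase genes are known targets of ATF4, the transcription factor of the integrated stress response, which binds composite C/EBP-ATF sites. The 300 bases around each start (250 before, 50 after, RefSeq, GRCm38.p6) were available for 26 members, 12 cytosolic and 14 mitochondrial, and were searched on both strands. The motif TGATGNAA was in 5 of the 26, 19.2% against 4.51% of all 27025 promoters: Aars, Gars, Iars, Tars and Yars, all cytosolic. The CRE palindrome TGACGTCA was in 0 of the 26, against 2.03% of all. For each of the 5 genes, 1 match is shown so that the letters around it can be compared; the match to TGATGNAA or its reverse complement is in capitals, with 10 bases on either side, on the strand of the gene.
Aars, chr8:111033841-111033868, plus strand: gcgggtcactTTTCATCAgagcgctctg
Iars, chr13:49682127-49682154, plus strand: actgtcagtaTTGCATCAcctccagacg
Tars, chr15:11399656-11399683, minus strand: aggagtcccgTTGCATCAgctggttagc
Yars, chr4:129189896-129189923, plus strand: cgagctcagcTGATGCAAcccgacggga
Gars, chr6:55037961-55037988, plus strand: ggctgcgctaTTTCATCAtgcaccgggc

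These 5 genes did not share a level. Gars was at 88.6 ± 3.94 TPM, Yars at 53.7 ± 3.81, Aars at 52.7 ± 3.30, Iars at 32.2 ± 3.53 and Tars at 17.3 ± 4.09 (mean ± SD, n = 2). A match is a description of letters in a window, and no binding was measured here.

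Of 15 integrated stress response genes, 14 were detected. Asns, asparagine synthetase, was the highest at 61.5 and 57.6 TPM, followed by Atf4 itself at 54.3 and 48.5 TPM. Psat1, a serine synthesis enzyme, was at 46.8 and 42.0 TPM. Trib3, a pseudokinase of the response, was lowest at 0.51 and 0.27 TPM, on 14 and 4 reads. Of the detected 14, all were within 1.5-fold between the libraries in scaled reads, as were 34 of the synthetases. This does not set them apart, since only 1.77% of the 12683 genes compared between the libraries were past 1.5-fold. Trib3, which was not detected, was past it with a log2 ratio of -1.71. In TPM the detected Eif2ak2 was also past 1.5-fold, at 3.56 and 1.9 TPM on 148 and 122 reads.

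Other genes around tRNA charging were mostly detected as well. The 3 subunits of the amidotransferase that finishes mitochondrial glutaminyl-tRNA were detected, from Qrsl1 at 7.94 and 7.90 TPM to Gatc at 11.8 and 12.4 TPM, and their median was 9.08 ± 0.0354 TPM (SD, n = 2). The 7 genes of mitochondrial tRNA maturation had a median of 13.7 ± 0.877 TPM, from Trmt10c, a tRNA methyltransferase of mitochondrial RNase P, at 4.12 and 4.07 TPM to Trnt1, which adds the CCA end, at 31.7 and 28.1 TPM. The 6 mitochondrial translation factors had a median of 14.9 ± 0.824 TPM. Tufm, the elongation factor that carries charged tRNA to the mitochondrial ribosome, led them at 40.3 and 37.2 TPM, and Mtif3, an initiation factor, was lowest by the mean at 9.67 and 11.1 TPM. Among 4 genes of editing and quality control, Dtd1, a D-aminoacyl-tRNA deacylase, was highest at 30.1 and 23.1 TPM, and Prorsd1 was lowest at 1.36 and 0.89 TPM and did not count as detected. Of the 3 genes for modified aminoacyl-tRNAs, Pstk, the kinase in selenocysteine synthesis, was highest at 16.5 and 14.7 TPM and Sepsecs, the enzyme after it, lowest at 5.22 and 4.18 TPM. In scaled reads, 0 of these 23 genes and of the 3 scaffold genes were past 1.5-fold between the libraries, where 1.77% of genes with a mean of 100 reads or more were; Prorsd1, on 23 and 17 reads, lies under that minimum.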

How the data were processed

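Total RNA-seq libraries of 2 animals, 1 group, were analysed. Per the deposited README files, the authors derived expected counts of genes and transcripts from transcriptome alignments (mm10, M21). TPM values and the other deposited numbers used, the bounds of TPM intervals, stand in the same tables. For the alignment-free tables the authors derived estimated counts and TPM from the sequence reads directly, again per the README files, and these were summed per gene here. The column names are those of RSEM and kallisto, whose versions no source used here gives. Reads of CAST alleles may align less well to mm10, and no allele was separated. All identifiers matched GENCODE M21 by versioned ID.

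The members, gene lists and alternatives were chosen with earlier results of these data known. For the comparison of libraries, 0.5 was added to expected counts scaled by TMM (edgeR 4.0.16, R 4.3.3) or, as an alternative, DESeq2 1.42.0 size factors, for genes with a mean of 100 reads or more. No fit or test was run; past 1.5-fold is a size only. On simulated counts for 55450 genes, the ratio passed 1.5-fold for 43 of 50 genes changed 1.75-fold and for 20 of 12473 unchanged genes. The noise in the simulation was set by hand and not estimated from these libraries, where 224 of 12683 genes passed 1.5-fold. The simulation therefore checks the calculation and gives no rate of false calls for these data. Pair ratios are log2 of TPM + 0.1. Shared stretches were found with blastn 2.17.0 (word size 16) among GENCODE M21 transcripts. Of the promoter matches, 1 is not reported here. Counting limits cover counting error only.

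All members are accounted for. By rule, values per library are given for the 5 highest and 3 lowest genes of each group, the 3 widest and 3 narrowest pairs, members past a threshold or with a changing or non-coding leading transcript, members of the multi-synthetase complex, and Kars, Gars, Eprs, Farsa, Farsb and Lars2; a few others are named beside them.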

Additional observations from a re-analysis of the deposited data

How the results depend on the processing

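Of 115 values under alternatives, 78 moved by less than the spread between libraries or stayed within 1.5 times their count, 33 moved further and 4 changed sign. With 2 libraries, the value of 1 library always lies within the SD of their mean. Single-library medians, pair ratios and shares therefore could not move further, and their part of the 78 says nothing about stability. The Lars2 transcript leading by mean share held 64.3% of the gene's TPM. Its 25.8% in the alignment-free tables is among the 78 only because the libraries lay far apart. The cytosolic median of 41.7 TPM was 65.9 in the alignment-free tables and 33.2 over protein-coding transcripts, and 40.9 to 42.4 in single libraries. The mitochondrial median of 10.9 TPM was 17.3, 6.70 and 10.4 to 11.3 in the same settings. The count of 2 members apart between quantifications was 1 at 2-fold and 1 with TPM rescaled over protein-coding genes, and ranged from 2 (without replicate 1) to 5 (without replicate 2). The Tars-Tars2 log2 ratio of -0.12 became 0.33 in the alignment-free tables and ranged from -0.32 (without replicate 1) to 0.081 (without replicate 2). The Lars-Lars2 ratio of -1.16 became 0.86 over protein-coding transcripts and ranged from -2.93 (without replicate 1) to 0.62 (without replicate 2). The cause was not tested. Leave-one-out settings for detection, single pair ratios, quantifications and leading transcripts, the pair count without Lars-Lars2 (14), and protein-coding counts between libraries were added after seeing the data. Detection of 35 members became 32 at 5 TPM. The planned description of amino acid use was not run. No paired analysis was possible because the libraries form 1 group. Depth limits Pars2 and Ears2 most, at 148 and 193 reads.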
